A study of Mus musculus with 12 samples.

Results

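The proteasome genes of cultured mouse keratinocytes, which build the epidermis, were examined for the level of their translated mRNAs near the cell cortex and in the rest of the cell. Members were the protein-coding genes whose symbol starts with Psma, Psmb, Psmc, Psmd, Psme, Psmf or Psmg followed by a number, which gave 50 of the 54532 genes listed. The name rule also took Psmc3ip, a meiotic recombination factor that is not a proteasome part, and this gene was left out of all class summaries. The remaining 49 genes were 19 of the core particle (Psma and Psmb), 20 of the regulatory particle (Psmc and Psmd), 6 activators or regulators (Psme and Psmf) and 4 assembly factors (Psmg).

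The proteasome degrades proteins that carry a ubiquitin tag. Its core is a barrel of stacked rings, with alpha subunits at the ends that gate entry and beta subunits inside, 3 of which cut peptide bonds. A regulatory particle docks on the core, with a base of ATPases that unfold the substrate and a lid that removes the ubiquitin. Other caps can take its place, dedicated chaperones build the rings, and interferon swaps in immunoproteasome beta subunits that favour peptides for antigen presentation.

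All cells carried the genotype WT DP-BirA(1-584), in which residues 1 to 584 of desmoplakin are fused to the biotin ligase BirA. Desmoplakin sits in desmosomes, the junctions that hold neighbouring keratinocytes together. All were grown to confluence, then given 1.2 µM calcium to induce differentiation and 2 µg/mL doxycycline to switch the fusion on, and were pulsed with biotin for 16 h. They were scratch wounded or left unwounded. The translating fraction of a sucrose gradient was passed over neutravidin, so that the cortical libraries hold RNA retained by the resin and the total libraries hold RNA of the depleted remainder. The 4 groups, a total and a cortical one from unwounded and from wounded cells, had 3 libraries each. No group without the fusion or without biotin was used here, so the cortical value is always relative to the depleted fraction of cells that express the fusion. The titles call the replicates biological, but nothing says that they came from separate animals or cultures, and p-values measure the spread between these libraries.

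Library totals ran from 8980013 to 23457548 counts, and 13571 genes had enough counts to be tested. Levels are in CPM (counts scaled to a common library size, with TMM factors) unless FPKM (fragments scaled by gene length and library size) is named. The 12 keratinocyte marker genes summed to 14374 to 27959 CPM per library, while marker lists of fibroblasts, melanocytes, immune cells, endothelium and muscle summed to at most 10.4 CPM. The keratinocyte markers were uneven. Krt14 had 4227 to 10883 CPM, but the differentiation keratins Krt10 and Krt1 had only 16.0 to 32.7 and 0 to 1.84 CPM. The sum therefore does not show that the cells had differentiated. The immune markers Adgre1, Cd207 and Lyz2 and the endothelial marker Cdh5 had 0 counts throughout. So had the fibroblast marker Dcn and the melanocyte markers Tyr and Tyrp1. Wounded total replicate 1 stood apart. Only 13117 genes had a count in it, where the remaining 11 libraries had 14393 to 16867, and 32.7% of the genes expected at 10 to 20 counts in it were at 0, against 0.506% to 24.8% elsewhere. Values without this library are therefore given beside the results. Fewer cells making an mRNA and less of it per cell cannot be told apart in such bulk libraries.

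Of the 50 members, 47 passed the filter on low counts, 46 of them proteasome genes. Psma8, the testis form of an alpha subunit, and Psmb11, the thymus form of a beta subunit, had 0 counts in every library, where 3 counts would be 0.128 to 0.334 CPM. Psmb8, an immunoproteasome catalytic subunit, had 21, 1 and 6 counts in the unwounded total libraries, 0, 0 and 4 in the unwounded cortical, 0, 2 and 0 in the wounded total and 14, 0 and 8 in the wounded cortical libraries. It was not tested. The 4 listed Psm pseudogenes had 0 counts. Strand was not kept in library preparation, and how reads were counted is not given in the sources used here, so reads shared with an antisense gene or a near-identical copy could not be separated.

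Members made up 0.899% to 1.14% of the counts of a library, and most of that came from the core and the regulatory particle. The 19 core genes summed to 5395, 5769 and 5592 CPM in the unwounded total libraries and 4296, 4219 and 4231 CPM in the unwounded cortical libraries. After wounding they summed to 4651, 6947 and 7761 CPM in the total and 4995, 4879 and 4855 CPM in the cortical libraries. The cortical libraries of each treatment lay close together, and in unwounded cells all were below all total libraries. In wounded cells the total libraries were spread widely, and replicate 1, the lowest, fell below all the cortical ones. For the regulatory genes all cortical libraries were below all total libraries in each treatment, with 3912 to 4299 CPM in the unwounded total, 3433 to 3505 in the unwounded cortical, 3967 to 5173 in the wounded total and 3762 to 3833 in the wounded cortical libraries.

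**Figure D1:**
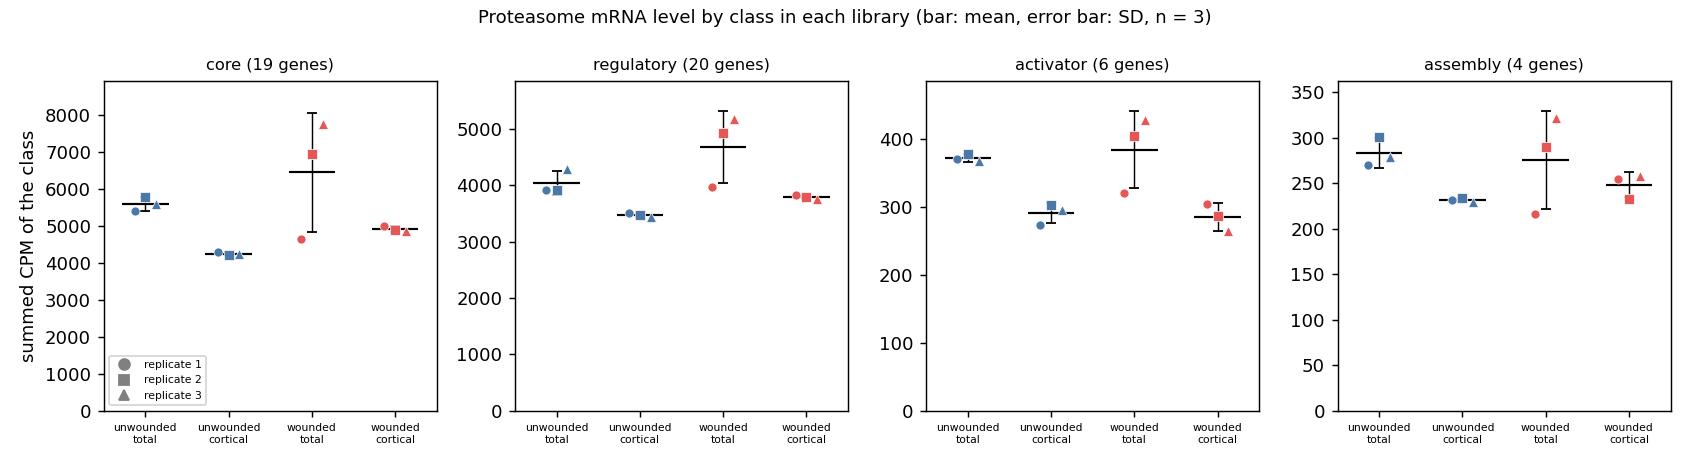
Summed CPM of each class of proteasome genes in each of the 12 libraries, with symbols for replicates, a bar for the group mean and an error bar for the SD (n = 3). The core sums of the unwounded cortical libraries (4219 to 4296 CPM) lie below those of the unwounded total libraries (5395 to 5769 CPM), and wounded total replicate 1 is the lowest point of its group in every class.

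Scaled by gene length, the highest levels were those of core genes and of 1 ATPase gene. In the unwounded total group Psmb4, a non-catalytic beta subunit, had 333 FPKM, Psmb3 308 FPKM and the ATPase gene Psmc5 308 FPKM. The lowest tested core gene was Psmb9, an immunoproteasome catalytic subunit, with 3.31 FPKM. The lowest regulatory gene was Psmd5, a chaperone of the base, with 1.34 FPKM. Among the activators, Psme3 was highest with 50.9 FPKM and Psme4 lowest with 3.32 FPKM, and among the assembly factors Psmg4 was highest with 90.3 FPKM and Psmg3 lowest with 14.5 FPKM. The length used was that of all exons of a gene merged, which lowers the FPKM of genes with long alternative exons.

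The first question was whether proteasome mRNAs differed between the cortical and the total fraction of unwounded cells. Most of the members that passed were lower in the cortical fraction. Of the 47 members tested, 15 passed an adjusted p of 0.05, 2 higher and 13 lower, where 14.2% of all genes tested passed (6.62% higher and 7.59% lower). The higher ones were Psmd1 and Psmd2, the largest scaffold subunits of the regulatory base. Of the 46 proteasome genes, 41 had a fitted log2 ratio below 0, and their median was -0.33, against 0.00 for all genes tested. The classes had similar medians: -0.35 for the core, -0.32 for the regulatory particle, -0.39 for the activators and -0.30 for the assembly factors.

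In wounded cells most of the members that passed were again lower in the cortical fraction. Of the 47 tested, 18 passed, 1 higher and 17 lower, where 15.7% of all genes passed (7.62% higher and 8.03% lower). The higher one was Psmg2, a chaperone of alpha ring assembly. The median over 46 proteasome genes was -0.34, against 0.04 over all genes tested, and the class medians were -0.33, -0.33, -0.56 and -0.32 for the core, regulatory, activator and assembly genes. The cortical-to-total comparisons of wounded and unwounded cells share no library. Both come from 1 fit with the spread estimated over all 12 libraries, so their calls are not independent. Of the genes called, 10 were called lower in both, which is 66.7% of the 15 and 55.6% of the 18, beside 52.2% and 47.4% for the 1007 genes called in the same direction in both among all genes tested. Psmd1, Psmd2 and Psme4 were the proteasome genes with a fitted ratio above 0 in both.

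The number called, among members as among all genes, depended on single libraries. Without wounded total replicate 1, 33 members passed in unwounded cells (3 higher, 30 lower; 22.4% of all genes) and 35 in wounded cells (1 higher, 34 lower; 24.7% of all genes). All 15 genes called in unwounded cells and 17 of the 18 called in wounded cells were among them. The comparison in unwounded cells does not hold the library left out, which enters it through the spread and scaling of the joint fit. In unwounded cells 9 members passed without unwounded total replicate 2 (6.69% of all genes) and 8 without unwounded cortical replicate 3 (8.64%). In wounded cells 7 passed without total replicate 2 (7.66% of all genes) and 8 without total replicate 3 (10.1%). Without cortical replicates 1, 2 and 3, 9, 6 and 7 passed, beside 8.82%, 8.59% and 9.41% of all genes. Scaling by library size alone, under which the median of all genes moved to 0.19 in unwounded and 0.25 in wounded cells, gave 3 higher and 8 lower (15.1% of all genes passed), and 3 higher and 5 lower (20.1% of all genes). The proteasome median was then -0.15 and -0.10, which is -0.34 and -0.35 once the all-gene median is subtracted, compared with -0.34 and -0.38 under the TMM scaling. The calls that passed with each of the 12 libraries left out in turn were those of Psmb2, Psmb7, Psmc6, Psmd7, Psmd9, Psmd11 and Psme3 in unwounded cells and of Psmd8, Psmd9, Psmd11, Psmd13 and Psmf1 in wounded cells.

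**Figure D2:**
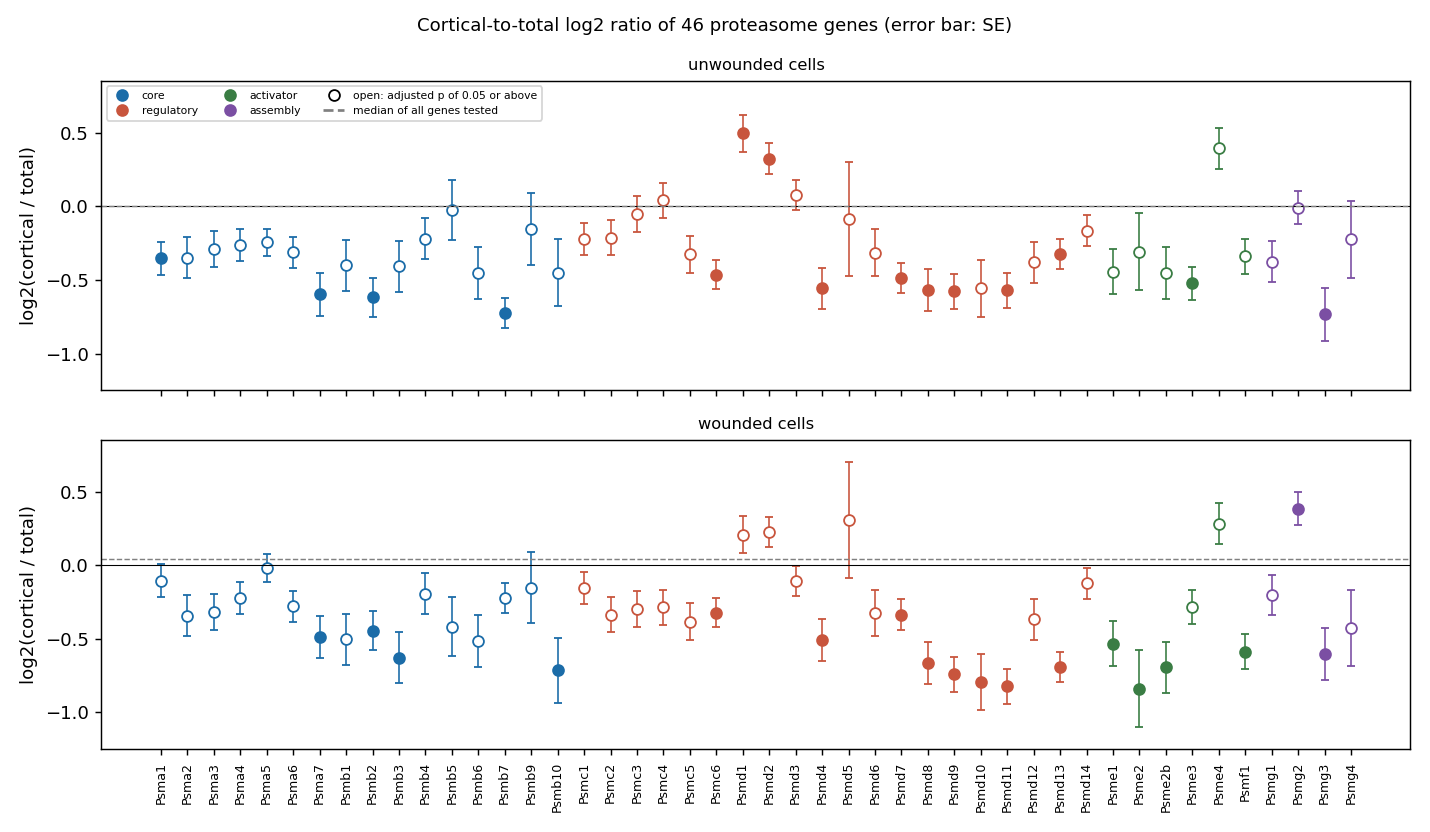
Cortical-to-total log2 ratio of 46 proteasome genes in unwounded cells (top) and wounded cells (bottom), with the SE as error bar, filled points for an adjusted p under 0.05 and a dashed line at the median of all genes tested. Most points lie below 0 in both panels, and Psmd1, Psmd2 and Psme4 lie above 0 in both.

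In the alpha ring of the core, 2 of 7 genes were lower in the cortical fraction of unwounded cells. In wounded cells 1 of 7 was lower. Of all genes tested, 7.59% in unwounded and 8.03% in wounded cells were called lower. Counts in sub-lists as short as this and those below are descriptions, and no difference from the all-gene share was tested. Psma7, an alpha ring subunit, had 759, 801 and 733 CPM in the unwounded total and 503, 521 and 491 CPM in the unwounded cortical libraries. In wounded cells Psma7 had 564, 866 and 952 CPM in the total and 567, 559 and 573 CPM in the cortical libraries. The groups were apart in unwounded cells, with a log2 ratio of -0.60 ± 0.14 (SE, adjusted p = 0.0104). They overlapped in wounded cells through wounded total replicate 1, with -0.49 ± 0.14 (adjusted p = 0.0308), and -0.68 (adjusted p = 1.68e-06) without that library. The wounded call was lost without total replicate 2 or 3 or any of the cortical replicates, with an adjusted p of up to 0.132, and the unwounded one without unwounded cortical replicate 3 (adjusted p = 0.0502). Psma1 passed in unwounded cells at -0.35 ± 0.11 (adjusted p = 0.0422), and kept its call in 3 of the 12 fits with a library left out, those without unwounded total replicate 3, wounded total replicate 1 or wounded cortical replicate 2. The other 5 alpha genes did not pass in unwounded cells, with log2 ratios from -0.35 (Psma2) to -0.24 (Psma5).

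In the constitutive beta ring, 2 of 7 genes were lower in each treatment, Psmb2 and Psmb7 in unwounded and Psmb2 and Psmb3 in wounded cells. Of all genes, 7.59% and 8.03% were called lower. Psmb7 encodes the subunit with trypsin-like activity. It had 245, 229 and 216 CPM in the unwounded total and 141, 139 and 137 CPM in the unwounded cortical libraries, and 202, 224 and 254 CPM in the wounded total and 186, 206 and 191 CPM in the wounded cortical libraries. The cortical level in unwounded cells was 0.605 times the total level, with no overlap, and the wounded groups overlapped. The log2 ratio was -0.72 ± 0.10 (adjusted p = 0.000329) in unwounded and -0.22 ± 0.10 (adjusted p = 0.159) in wounded cells. The difference between these ratios was 0.50 ± 0.15 and did not pass (adjusted p = 0.3).

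Psmb2, a beta subunit without catalytic activity, had 323, 344 and 323 CPM in the unwounded total and 215, 211 and 219 CPM in the unwounded cortical libraries. In wounded cells it had 253, 366 and 396 CPM in the total and 258, 247 and 241 CPM in the cortical libraries. Its groups were apart in unwounded cells and overlapped in wounded cells through replicate 1 of the total group. The log2 ratios were -0.62 ± 0.13 (adjusted p = 0.00486) and -0.44 ± 0.13 (adjusted p = 0.0302). The wounded call was lost without total replicate 2 or 3 or any of the 3 cortical libraries, with an adjusted p of up to 0.128. It was also lost after the length trend was removed, at -0.23 (adjusted p = 0.0815). Psmb3, also non-catalytic, had 584, 966 and 1157 CPM in the wounded total and 604, 552 and 596 CPM in the wounded cortical libraries, again with replicate 1 of the total group inside the cortical range. Its log2 ratio was -0.63 ± 0.17 (adjusted p = 0.0208), and its call was lost without the same 5 libraries, with an adjusted p of up to 0.0979.

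The other catalytic genes did not pass in either cortical comparison. Psmb5, the chymotrypsin-like subunit, had 109, 147 and 158 CPM in the unwounded total and 136, 133 and 138 CPM in the unwounded cortical libraries, which overlapped, with a log2 ratio of -0.02 ± 0.20. Psmb6, the caspase-like subunit, had 474, 562 and 553 CPM in the unwounded total and 392, 372 and 398 CPM in the unwounded cortical libraries. In wounded cells Psmb6 had 417, 712 and 842 CPM in the total and 487, 431 and 459 CPM in the cortical libraries. The unwounded groups of Psmb6 were apart at -0.45 ± 0.18 (adjusted p = 0.104), and the wounded groups overlapped at -0.52 ± 0.18 (adjusted p = 0.0577). Both passed with wounded total replicate 1 left out, at -0.45 (adjusted p = 0.000515) and -0.76 (adjusted p = 2.56e-06). Psmb4 and Psmb1, which do not cut peptides, had log2 ratios of -0.22 and -0.40 in unwounded and -0.20 and -0.50 in wounded cells, and did not pass.

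The immunoproteasome genes were lower in CPM than each gene of the alpha ring and the constitutive beta ring in all groups. Psmb10 had 43.4, 54.3 and 43.8 CPM in the unwounded total and 35.4, 28.7 and 39.4 CPM in the unwounded cortical libraries. In wounded cells it had 30.9, 56.5 and 74.7 CPM in the total and 30.0, 34.5 and 34.3 CPM in the cortical libraries. Wounded total replicate 1 lay within the cortical range. The wounded log2 ratio of Psmb10 was -0.71 ± 0.22 (adjusted p = 0.0392), it was lost without unwounded total replicate 3, unwounded cortical replicate 1 or any wounded library but total replicate 1 (adjusted p of up to 0.213), and it was -1.0 (adjusted p = 1.7e-05) without wounded total replicate 1. In unwounded cells Psmb10 did not pass (-0.45, adjusted p = 0.215). Psmb9 ran from 9.96 to 21 CPM over all libraries and passed in no comparison, with cortical log2 ratios of -0.15 ± 0.25 in unwounded and -0.15 ± 0.24 in wounded cells.

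In the regulatory base, Psmd1 and Psmd2 went the other way from most members. Psmd1 had 69.1, 56.1 and 72.2 CPM in the unwounded total and 85.5, 92.5 and 100.4 CPM in the unwounded cortical libraries, with every cortical library above every total library. Psmd2 had 364, 338 and 426 CPM in the unwounded total and 477, 463 and 471 CPM in the unwounded cortical libraries, also without overlap. The log2 ratios were 0.49 ± 0.12 for Psmd1 (adjusted p = 0.0133) and 0.32 ± 0.10 for Psmd2 (adjusted p = 0.0479). In wounded cells Psmd1 had 78, 62.6 and 74.9 CPM in the total and 80.4, 92.8 and 75.9 CPM in the cortical libraries, at 0.21 ± 0.12 (adjusted p = 0.292). Psmd2 had 487, 528 and 554 CPM in the total and 610, 612 and 613 CPM in the cortical libraries, at 0.23 ± 0.10 (adjusted p = 0.162), with all cortical libraries above all total libraries. Psmd1 lost its unwounded call without unwounded total replicate 2 or unwounded cortical replicate 3 (adjusted p of up to 0.081) and with the length trend removed (0.38, adjusted p = 0.051). Psmd2 kept its unwounded call in 3 of the 12 fits with a library left out, those without unwounded total replicate 3 or wounded total replicate 1 or 3.

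Among the 6 ATPases of the base, 1 passed in each treatment, a share near the 14.2% and 15.7% of all genes that passed. Psmc6 had 128, 124 and 118 CPM in the unwounded total and 85.1, 86.8 and 95.6 CPM in the unwounded cortical libraries, and 109, 127 and 130 CPM and 93.8, 101 and 97 CPM in the wounded ones. The groups did not overlap in either treatment, and the log2 ratios were -0.47 ± 0.10 (adjusted p = 0.00468) and -0.32 ± 0.10 (adjusted p = 0.0343). The wounded call was lost without 5 of the 6 wounded libraries, all but total replicate 1, with an adjusted p of up to 0.124. The other 5 ATPases ran from -0.33 (Psmc5) to 0.04 (Psmc4) in unwounded and from -0.38 (Psmc5) to -0.15 (Psmc1) in wounded cells. Psmd4, the base subunit that binds ubiquitin chains, had 361, 371 and 389 CPM in the unwounded total and 264, 251 and 247 CPM in the unwounded cortical libraries, at -0.56 ± 0.14 (adjusted p = 0.0132). In wounded cells Psmd4 had 347, 509 and 552 CPM in the total and 367, 313 and 310 CPM in the cortical libraries, which overlapped, at -0.51 ± 0.14 (adjusted p = 0.0214). These calls of Psmd4 were lost without unwounded cortical replicate 2 or 3 (adjusted p of up to 0.0585) and, in wounded cells, without total replicate 2 or 3 or cortical replicate 2 or 3 (up to 0.091).

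The lid had 4 of 8 genes lower in each treatment, beside 7.59% and 8.03% of all genes. They were the same genes, Psmd7, Psmd8, Psmd11 and Psmd13. Psmd11, a subunit that helps clamp the lid to the core, had 119, 137 and 137 CPM in the unwounded total and 85.6, 91.9 and 87.5 CPM in the unwounded cortical libraries. In wounded cells Psmd11 had 138, 179 and 173 CPM in the total and 83.9, 106 and 87.5 CPM in the cortical libraries. The groups were apart in both treatments. The log2 ratios were -0.57 ± 0.12 (adjusted p = 0.00449) and -0.82 ± 0.12 (adjusted p = 0.000551), and both passed under all 11 other settings.

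Psmd8, a small lid subunit, had 537, 556 and 498 CPM in the unwounded total and 363, 363 and 349 CPM in the unwounded cortical libraries, and 445, 683 and 730 CPM and 394, 372 and 406 CPM in the wounded ones. All cortical libraries were below all total libraries in each treatment, at -0.57 ± 0.14 (adjusted p = 0.0132) and -0.66 ± 0.14 (adjusted p = 0.00538). The unwounded call of Psmd8 was lost without unwounded total replicate 2 or unwounded cortical replicate 3, with an adjusted p of up to 0.0588. Psmd7, the partner of the deubiquitinase, had ratios of -0.48 ± 0.10 (adjusted p = 0.00468) and -0.34 ± 0.10 (adjusted p = 0.0355), with all cortical libraries below all total libraries. The wounded call of Psmd7 was lost without wounded total replicate 1 or 2, any wounded cortical library or unwounded cortical replicate 1 or 2 (adjusted p of up to 0.118), and neither passed with the length trend removed (adjusted p = 0.128 and 0.164). Psmd14, the deubiquitinase itself, had 126, 121 and 143 CPM in the unwounded total and 122, 116 and 110 CPM in the unwounded cortical libraries, and 101, 126 and 124 CPM and 107, 109 and 107 CPM in the wounded ones. These groups overlapped, and the log2 ratios of -0.16 ± 0.11 and -0.12 ± 0.11 did not pass.

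Of the 3 chaperones that assemble the base, Psmd9 was lower in the cortical fraction of both treatments and Psmd10 in wounded cells. Of all genes, 7.59% and 8.03% were called lower in unwounded and wounded cells. Psmd9 had 62.1, 67.8 and 59.6 CPM in the unwounded total and 41.4, 36.9 and 48.8 CPM in the unwounded cortical libraries. In wounded cells it had 64.8, 70.4 and 60.7 CPM in the total and 40.4, 40.5 and 36.5 CPM in the cortical libraries. The groups were well apart in both treatments, at -0.58 ± 0.12 (adjusted p = 0.004) and -0.74 ± 0.12 (adjusted p = 0.000917). Psmd10, known as gankyrin, had 22.7, 26.5 and 21.4 CPM in the unwounded total and 13.4, 18.2 and 16.6 CPM in the unwounded cortical libraries, and 29.0, 28.7 and 31.5 CPM and 16.9, 22.3 and 12.4 CPM in the wounded ones. No libraries overlapped within a treatment. The log2 ratio of Psmd10 passed in wounded cells (-0.80 ± 0.19, adjusted p = 0.00989) but not in unwounded cells (-0.56 ± 0.19, adjusted p = 0.0636), and the difference between these ratios was -0.24 (adjusted p = 0.86). The wounded call was lost without wounded cortical replicate 3 (adjusted p = 0.0508). Psmd5 was at 1.60 to 10.4 CPM, with its lowest value in wounded total replicate 1, and passed in no comparison.

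The activators included a pair of genes with nearly the same coding sequence. Psme2 lies on chromosome 14 and Psme2b, a copy that the GENCODE annotation tags as a retrogene, on chromosome 11. Their coding sequences are 717 bases each and differ at 5 positions (99.3% identity), whereas Psme2 and its partner Psme1 are 67.4% identical. The stretch of coding bases 454 to 543 holds 3 of the 5 differences, shown in capitals, and is printed because, within the coding sequence, such bases alone tell the genes apart.
Psme2: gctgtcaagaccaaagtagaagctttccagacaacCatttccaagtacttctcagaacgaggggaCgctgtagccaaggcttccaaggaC
Psme2b: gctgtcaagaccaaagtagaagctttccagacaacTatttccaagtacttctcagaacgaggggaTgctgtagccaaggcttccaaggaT

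The values of Psme2 and Psme2b are therefore uncertain. Psme1 and Psme2 form the cap that interferon raises. Psme1 had 57.8, 55.8 and 52.2 CPM in the unwounded total and 35.4, 42.9 and 43.7 CPM in the unwounded cortical libraries, and 54.1, 74.4 and 80.4 CPM and 57.2, 44.9 and 42.1 CPM in the wounded ones. Psme2 had 41.0, 53.3 and 50.1 CPM in the unwounded total and 40.6, 43.4 and 32.3 CPM in the unwounded cortical libraries, and 33.8, 81.9 and 96.9 CPM and 45.4, 41.2 and 32.4 CPM in the wounded ones. Psme2b had 31.8, 31.7 and 30.3 CPM and 17.2, 26.5 and 25.5 CPM, and 47.1, 43.5 and 40.5 CPM and 25.1, 21.9 and 34.0 CPM in the same order. Wounded total replicate 1 was the lowest of its group for Psme1 and Psme2 and the highest for Psme2b.

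In wounded cells Psme1 (-0.53 ± 0.15, adjusted p = 0.0248), Psme2 (-0.84 ± 0.26, adjusted p = 0.0393) and Psme2b (-0.69 ± 0.17, adjusted p = 0.0136) were lower in the cortical fraction. The call of Psme1 was lost without wounded total replicate 2 or 3 or wounded cortical replicate 2 or 3, and that of Psme2b without wounded cortical replicate 1 or 2. Psme2 kept its call in 4 of the 12 fits with a library left out, those without wounded total replicate 1, unwounded total replicate 1 or 2 or unwounded cortical replicate 3. With wounded total replicate 1 left out its ratio was -1.17 (adjusted p = 1.83e-06). In unwounded cells the ratios of Psme1, Psme2 and Psme2b were -0.45, -0.31 and -0.45 and did not pass. Psme3, which forms the nuclear cap, had 146, 161 and 151 CPM in the unwounded total and 101, 111 and 107 CPM in the unwounded cortical libraries. The cortical libraries of Psme3 were all lower, at -0.52 ± 0.11 (adjusted p = 0.00528), and in wounded cells its ratio was -0.28 ± 0.11 (adjusted p = 0.103).

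Psme4, a large single-chain cap, had 34.0, 24.5 and 26.4 CPM in the unwounded total and 36.6, 35.0 and 40.0 CPM in the unwounded cortical libraries, and 35.8, 38.4 and 37.7 CPM and 51.8, 41.4 and 42.7 CPM in the wounded ones. Every cortical library was above every total library in each treatment, but the log2 ratios of 0.39 ± 0.14 (adjusted p = 0.0724) and 0.28 ± 0.14 (adjusted p = 0.188) did not pass. Psmf1, a proteasome inhibitor protein, had 60.2, 52.3 and 56.6 CPM in the unwounded total and 43.2, 43.9 and 46.5 CPM in the unwounded cortical libraries. In wounded cells Psmf1 had 57.2, 55.9 and 49.4 CPM in the total and 34.5, 41.0 and 32.8 CPM in the cortical libraries. All cortical libraries of Psmf1 were below all total libraries, and it passed in wounded cells (-0.59 ± 0.12, adjusted p = 0.00334) but not in unwounded cells (-0.34 ± 0.12, adjusted p = 0.0617). The difference between the ratios of Psmf1 was -0.25 (adjusted p = 0.722).

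The assembly factors work in pairs, Psmg1 with Psmg2 and Psmg3 with Psmg4. Psmg3 had 44.9, 47.0 and 36.4 CPM in the unwounded total and 28.6, 21.7 and 26.6 CPM in the unwounded cortical libraries, and 32.1, 40.9 and 43.4 CPM and 30.7, 19.1 and 26.7 CPM in the wounded ones. Its cortical libraries were lower without overlap, at -0.73 ± 0.18 (adjusted p = 0.0107) and -0.60 ± 0.18 (adjusted p = 0.03). These calls were lost without unwounded total replicate 2 or unwounded cortical replicate 2 (adjusted p of up to 0.0633) and, in wounded cells, without total replicate 2 or 3 or cortical replicate 2 or 3 (up to 0.134). Psmg4 had 48.7, 65.1 and 39.4 CPM in the unwounded total and 40.0, 53.1 and 38.0 CPM in the unwounded cortical libraries, and 31.4, 64.3 and 66.5 CPM and 43.9, 27.8 and 48.7 CPM in the wounded ones. Its groups overlapped and it did not pass (-0.23 ± 0.26 and -0.43 ± 0.26).

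Psmg2 had 68.8, 70.3 and 81.7 CPM in the unwounded total and 72.1, 67.5 and 79.6 CPM in the unwounded cortical libraries, and 57.1, 53.6 and 52.9 CPM and 71.2, 78.4 and 63.9 CPM in the wounded ones. The unwounded groups of Psmg2 overlapped at -0.01 ± 0.11, and in wounded cells all cortical libraries were above all total libraries, at 0.38 ± 0.11 (adjusted p = 0.0279). That call was lost without wounded total replicate 2 or 3 or wounded cortical replicate 1 or 2 (adjusted p of up to 0.124), and the difference between the ratios, 0.40 ± 0.16, did not pass (adjusted p = 0.467). Psmg1, its partner, had 107, 119 and 122 CPM in the unwounded total and 91.3, 91.2 and 85.3 CPM in the unwounded cortical libraries, and 95.5, 131 and 159 CPM and 109, 107 and 119 CPM in the wounded ones. The ratios of Psmg1 were -0.38 ± 0.14 (adjusted p = 0.085) and -0.20 ± 0.14 (adjusted p = 0.367).

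Apart from Psmg2 in wounded cells, the members called higher in the cortical fraction, Psmd1 and Psmd2, had long coding sequences. The median coding length was 802.5 bases over the members and 1383 bases over the protein-coding genes tested. The cut of 1500 bases used next was a chosen value and is neither of these medians. Of the 5 genes it sets apart, Psmd3 and Psmd5 were not above 0 in both treatments. The 5 proteasome genes with a longest coding sequence of at least 1500 bases (Psmd1, Psmd2, Psmd3, Psmd5 and Psme4) had a median log2 ratio of 0.32 in unwounded and 0.23 in wounded cells, and the 41 shorter ones -0.35 and -0.37. Spearman's rho between coding length and log2 ratio was 0.46 over the 46 genes and 0.48 over 11480 protein-coding genes in unwounded cells, and 0.43 and 0.48 in wounded cells. These are descriptions across genes of the same libraries, and genes are not independent replicates. The next step used gene length, with all exons of a gene merged, which is not coding length. For Psmd9 gene length is 7248 and coding length 666 bases. Calls after that step therefore do not show what removing a trend on coding length would give. With a trend on gene length removed from each library, 12 members passed in unwounded cells (1 higher, 11 lower; 10.6% of all genes), 11 of them shared with the 15. In wounded cells 16 passed (1 higher, 15 lower; 10.8% of all genes), 12 of them shared with the 18. The proteasome medians were -0.22 in unwounded and -0.28 in wounded cells, and the all-gene medians 0.03 and -0.04. Less the all-gene median, the proteasome medians were -0.25 and -0.24, against -0.34 and -0.38 in the main fit. The assembly factors had a median of 0.01 in unwounded cells with the gene-length trend removed, against -0.30 with it kept. What part length has in the difference between members and other genes was not tested.

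**Figure D3:**
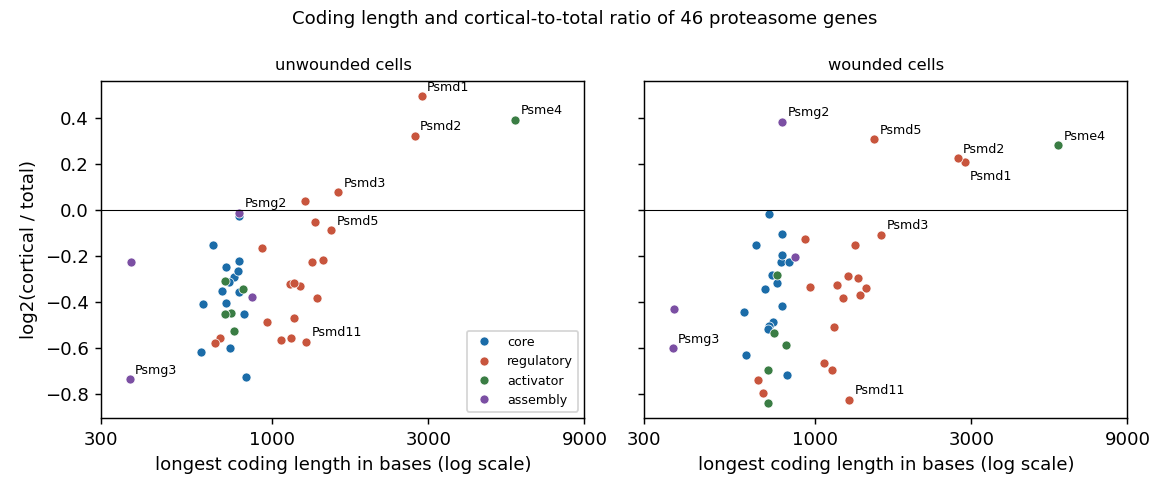
Cortical-to-total log2 ratio of 46 proteasome genes against their longest coding length on a log scale, for unwounded cells (left) and wounded cells (right), coloured by class. The 5 genes of at least 1500 bases have medians of 0.32 and 0.23, and the 41 shorter genes -0.35 and -0.37.

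The comparison of wounded with unwounded total libraries asked which translated mRNAs outside the captured fraction changed after scratching. Among proteasome genes, Psmb5, Psmd2 and Psmd13 rose and Psme3 and Psmg2 fell. With Psmc3ip, which fell, 6 of 47 members passed, 3 higher and 3 lower, where 15.6% of all genes passed (8.39% higher and 7.2% lower). The fitted change was above 0 for 33 of 46 proteasome genes, with a median of 0.14, against -0.03 for all genes tested. The class medians were 0.16 for the core, 0.17 for the regulatory particle, 0.37 for the activators and -0.03 for the assembly factors. When wounded total replicate 1 was left out, 26 members passed (23 higher, 3 lower; 24.9% of all genes) and the proteasome median was 0.29. Only 3 members passed without wounded total replicate 2 (10.2% of all genes). With the length trend removed 15 passed (13 higher, 2 lower; 19% of all genes), and with DESeq2 12 (9 higher, 3 lower; 19.2% of all genes). The median of all genes was 0.08 with the length trend removed. The proteasome median less the all-gene median was then 0.15, and 0.16 with DESeq2, compared with 0.16 in the main fit.

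Psmb5 had 137, 261 and 299 CPM in the wounded total libraries, against 109, 147 and 158 CPM in the unwounded ones. Replicates 2 and 3 of the wounded group were above all unwounded libraries, and replicate 1 was within their range. The log2 change was 0.75 ± 0.20 (adjusted p = 0.0183), and 1.02 (adjusted p = 6.04e-07) without wounded total replicate 1. The call was lost without unwounded total replicate 1 or wounded total replicate 2 or 3, with an adjusted p of up to 0.0998. Psmd2, with the values given above, rose by 0.48 ± 0.10 (adjusted p = 0.00562), all wounded libraries being above all unwounded ones.

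Psmd13, a lid subunit, had 143, 140 and 165 CPM in the unwounded total and 213, 211 and 194 CPM in the wounded total libraries, against 118, 124 and 116 CPM and 117, 140 and 126 CPM in the cortical ones. The wounded total libraries were above all others. The log2 change after wounding was 0.47 ± 0.10 in the total fraction (adjusted p = 0.00562) and 0.09 ± 0.10 in the cortical fraction (adjusted p = 0.709), and the difference was -0.37 ± 0.14 (adjusted p = 0.45). Its cortical-to-total ratio was -0.69 ± 0.10 in wounded cells (adjusted p = 0.000619) and -0.32 ± 0.10 in unwounded cells (adjusted p = 0.0452), a call kept in 2 of the 12 fits with a library left out, those without wounded total replicate 1 or wounded cortical replicate 2.

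Psme3 fell by 0.50 on the log2 scale after wounding (SE 0.11, adjusted p = 0.00684), with 91.8, 110 and 123 CPM in the wounded total libraries, all below the unwounded ones. In the cortical fraction it had 90.7, 95.9 and 80.0 CPM after wounding, and the change of -0.26 ± 0.11 did not pass (adjusted p = 0.249). Psmg2 fell by 0.43 (SE 0.11, adjusted p = 0.0149) with all wounded total libraries below all unwounded ones. Its call was lost without unwounded total replicate 3 or wounded total replicate 2 (adjusted p of up to 0.0677) and with the length trend removed (-0.34, adjusted p = 0.165). Psmc3ip had 15.6, 17.7 and 17.8 CPM in the unwounded and 7.41, 11.6 and 12.3 CPM in the wounded total libraries, at -0.71 ± 0.23 (adjusted p = 0.0426), kept in the 4 fits without wounded total replicate 3, unwounded cortical replicate 1 or 2 or wounded cortical replicate 2, of 12.

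**Figure D4:**
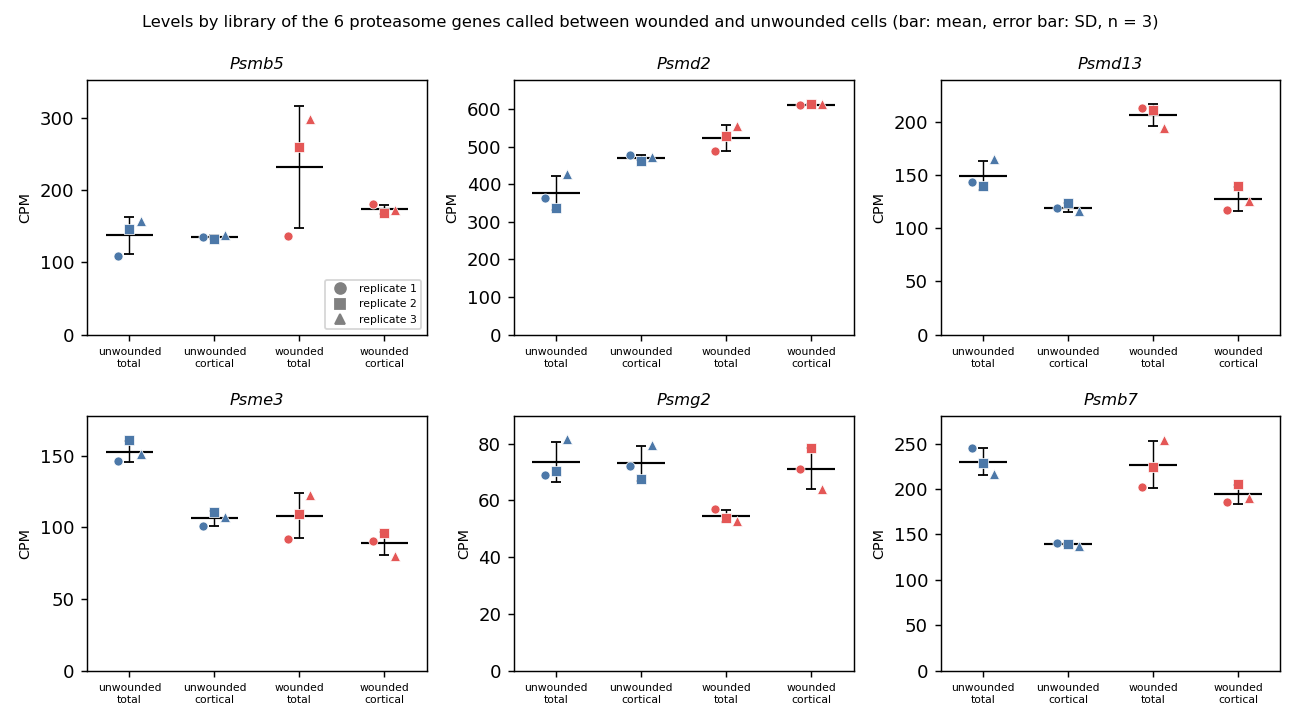
CPM in each of the 12 libraries of the 6 proteasome genes called between wounded and unwounded cells, with a bar for the group mean and an error bar for the SD (n = 3). Psmd2 and Psmd13 are higher and Psme3 and Psmg2 lower in all wounded than in all unwounded total libraries, Psmb5 has wounded total replicate 1 inside the unwounded range, and Psmb7 differs between the cortical groups.

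Promoters of the proteasome genes were searched for motifs tied to such genes. The 250 bases upstream of the RefSeq start (GRCm38.p6) were taken, with an entry for 41 of the 49 proteasome genes. The RefSeq start can differ from that of the counted gene. Psmg2, and Psmb7, which passed for wounding in the cortical fraction, had no entry and were not searched. The antioxidant response element, bound by the proteasome regulator Nfe2l1, was searched as TGACNNNGC on both strands. It was in 5 of 41 members (12.2%; Psmb5, Psmb6, Psmc6, Psmd9 and Psmd12) and in 11.5% of 27025 genes. The CCAAT box, searched as CCAAT on both strands, was in 14 of 41 (34.1%) and in 37.5% of all genes. Both shares lie near that of all promoters. Psmd2 and Psmd13, which rose after wounding, held neither motif in the bases searched. For Psmd13 these bases (chr7:140882144-140882393) lie inside the counted gene, which starts at 140881968. The bases upstream of that start were not searched. The promoters of Psmb5, which rose, and Psme3, which fell, are shown because they hold 1 of these matches each, in capitals. Psmb5 lies on the minus strand (chr14:54617996-54618245) with its response element 47 bases before the RefSeq start. The counted Psmb5 gene reaches to 54618022, so part of this stretch lies inside it. Psme3 lies on the plus strand (chr11:101315963-101316212) with a reverse CCAAT box 14 bases before the start.
Psmb5: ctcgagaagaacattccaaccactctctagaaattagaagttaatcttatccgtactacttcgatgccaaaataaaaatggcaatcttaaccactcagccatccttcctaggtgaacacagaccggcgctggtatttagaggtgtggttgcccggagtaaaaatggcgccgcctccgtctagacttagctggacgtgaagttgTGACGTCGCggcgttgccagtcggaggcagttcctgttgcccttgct
Psme3: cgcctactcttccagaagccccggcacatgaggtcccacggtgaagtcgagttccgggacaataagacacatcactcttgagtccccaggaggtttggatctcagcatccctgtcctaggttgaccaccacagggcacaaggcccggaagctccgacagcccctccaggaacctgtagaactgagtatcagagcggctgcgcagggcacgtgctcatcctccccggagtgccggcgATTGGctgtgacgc

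Within the cortical fraction, few genes passed after wounding, among members as among all genes. Psmb7 was the one that passed of 47, higher after wounding, where 2.48% of all genes passed (1.6% higher and 0.884% lower). All wounded cortical libraries of Psmb7 were above all unwounded cortical ones, at 0.48 ± 0.10 (adjusted p = 0.0194). The call was lost without any of the 6 cortical libraries, with an adjusted p of up to 0.106 and a log2 change of at least 0.44. The fitted change was above 0 for 30 of 46 proteasome genes, with a median of 0.10, against 0.02 for all genes, and 15 of the 16 core genes were above 0 with a median of 0.19. Psmd2 had 470 ± 7.46 CPM in unwounded and 612 ± 1.72 CPM in wounded cortical libraries (mean ± SD, n = 3), without overlap, and its log2 change of 0.38 ± 0.10 did not pass (adjusted p = 0.063). That SE draws on the spread over all 12 libraries, not on the 6 cortical ones alone. With wounded total replicate 1 left out 9 members passed, all higher (9.07% of all genes), and with unwounded total replicate 3 left out 2 passed (2.2%). Without any 1 of the 6 cortical libraries 0 passed, beside 0.767% to 0.965% of all genes. A fit of the cortical libraries alone called 13 members, 11 higher and 2 lower, and 11.3% of all genes.

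The cortical-to-total ratio of wounded cells was compared with that of unwounded cells by an interaction term. With edgeR, 0 of 47 members passed, where 0.125% of all genes passed, and 3 members had an unadjusted p under 0.05 (9.05% of all genes). DESeq2 also called 0. The smallest adjusted p among members was 0.3, that of Psmb7. Without wounded total replicate 1, 2 members passed, where 2.93% of all genes passed. They were Psmb5 at -0.66 (adjusted p = 0.0202) and Psme2 at -0.87 (adjusted p = 0.0196), each with a lower cortical-to-total ratio in wounded cells.

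Other genes of the ubiquitin-proteasome pathway were taken from a written list of 52 names, of which 48 were found and 46 tested. The list was chosen with earlier results of these data known, so its counts beside those of all genes are descriptions. In the cortical fraction of unwounded cells 6 were higher and 6 lower, beside 6.62% and 7.59% of all genes. In that of wounded cells 3 were higher and 12 lower, beside 7.62% and 8.03% of all genes. In total libraries after wounding 14 were higher and 2 lower, beside 8.39% and 7.2% of all genes, and in cortical libraries 1 was higher and 0 lower, beside 1.6% and 0.884%. These counts were, with wounded total replicate 1 left out, 9 and 9, 6 and 16, 17 and 4, and 5 and 3, where 22.4%, 24.7%, 24.9% and 9.07% of all genes passed in either direction. By library size alone the cortical counts were 11 and 4 in unwounded and 6 and 5 in wounded cells, where 15.1% and 20.1% of all genes passed.

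Pomp, the maturation factor of the core, had the lowest cortical-to-total ratio of the listed genes that passed in each treatment. It had 372 ± 39.5 CPM in the total and 195 ± 13.6 CPM in the cortical group (mean ± SD, n = 3) of unwounded cells, and 445 ± 91.8 and 232 ± 7.31 CPM in wounded cells. Its log2 ratios were -0.93 ± 0.14 (adjusted p = 0.000394) and -0.94 ± 0.14 (adjusted p = 0.000558). Nsfl1c, a cofactor of the unfolding ATPase Vcp, was lower at -0.88 and -0.85 in unwounded and wounded cells. In wounded cells the polyubiquitin gene Ubb was lower at -0.89, and Sem1, the smallest lid subunit, at -0.72. Nfe2l1, the transcription factor that raises proteasome genes when proteasome activity falls, was higher in the cortical fraction, at 0.73 ± 0.09 (adjusted p = 0.000146) in unwounded and 0.44 ± 0.09 (adjusted p = 0.00489) in wounded cells.

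After wounding, the largest changes of listed genes in the total fraction were rises. Maff, a small partner of Nfe2l1 and its relatives, rose from 5.84 ± 2.07 to 28.8 ± 6.67 CPM (mean ± SD, n = 3), at 2.30 ± 0.29 (adjusted p = 8.61e-05), and in the cortical fraction by 1.38 ± 0.28 (adjusted p = 0.0161). Vcp rose by 0.76, Tapbp, which helps load peptides on class I molecules, by 0.71, and the proteasome-binding shuttle factor Zfand5 by 0.66.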

How the data were processed

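The 12 libraries were poly-A selected, primed with random hexamers and not directional, per the labels' protocols. The authors deposited whole-number counts per gene, and FPKM (scaled by gene length and library size), with 1 column per library, per the file headers. The submitters' processing notes name CASAVA, HISAT2 and mm10. Versions, the counting tool and the annotation are not given in the sources used here. Of the 50 members, 48 had identical coordinates in GENCODE M21 (GRCm38), which gave coding lengths. Groups came from the sample titles, and 0 sample columns were left unused.

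Counts were tested with edgeR 4.0.16 (R 4.3.3): filterByExpr, TMM factors and 1 quasi-likelihood model of 4 group means over all 12 libraries, two-sided, with Benjamini-Hochberg adjustment over the 13571 genes tested in each comparison and a threshold of 0.05. Log2 ratios are first minus second group, with their SE. FPKM served for levels between genes and for limma-trend on log2(FPKM + 1) and log2(FPKM + 0.1). Other settings were median-of-ratios factors, library size, DESeq2 1.42.0 without independent filtering, no filter, genes averaging 50 counts or more, only the groups compared, the replicate number as a block, a loess trend (span 0.5) on gene length removed with and without that block, and each library left out. limma was version 3.58.1, and figures used python 3.11.15 and matplotlib 3.10.9. Scripts were tested on simulated data.

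All members were accounted for by class. Values per library are given for the most changed called members, up to 8 per comparison, the catalytic, immunoproteasome, activator and assembly genes, Psmd14 and the class extremes, and up to 5 called pathway genes with the largest change are named per comparison, of which some are not reported here. Members and lists were chosen with earlier results of these data known. No 2 libraries of a group agreed within sampling noise (chi-square per degree of freedom 7.29 to 80.1).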

Additional observations from a re-analysis of the deposited data

How the results depend on the processing

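Counts of members called stayed within 1.5 times the reported count, and class medians within 1 SD, in 527 values under the alternatives, and 43 moved further. That SD is the root of the summed variances of the class median in the groups compared. For the core it is 0.32 in the wounded total libraries alone, above the core wounding median of 0.16 in the total fraction. A median there could change sign and still count as kept. With only the groups compared in the fit, 29, 7, 3 and 13 members passed, beside 23.7%, 7.66%, 9.25% and 11.3% of all genes. The order is cortical to total in unwounded and wounded cells, then wounding in the total and cortical fraction, and no such fit was made for the interaction. Library size alone gave 8 for the cortical comparison in wounded cells (20.1% of all genes). For wounding in the total fraction DESeq2 gave 12 (19.2%), and the length trend removed gave 15 (19%), or 13 with the replicate block (18.3%). For wounding in the cortical fraction each of these gave 2 (5.42%, 3.37% and 2.93%). Leaving out 1 library gave 8 to 33, 6 to 35, 3 to 26 and 0 to 9 members in the same order, and 0 to 2 for the interaction. In unwounded cells the cortical medians by library size alone were -0.16 for the core, -0.13 for the regulatory, -0.21 for the activator and -0.11 for the assembly genes. With the length trend removed they were -0.24 for the core, -0.21 for the activators and 0.0089 for the assembly genes, and -0.24, -0.20 and 0.011 with the block. The median of all genes in this comparison was 0.19 by library size alone, 0.03 with the length trend removed and 0.02 with the block. The core median ran from -0.41 to -0.33 with 1 library left out. The core median for wounding in the cortical fraction was 0.13 by library size alone.

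For a single member in a comparison where it passed under at least 1 setting, 2220 values kept their direction and side of the threshold, 200 lost and 188 gained the call, and 12 changed sign. Psma5 in unwounded cells was at 0.026 with the length trend removed and 0.024 with the block. By library size alone the wounded cortical ratio was 0.0013 for Psma4, 0.050 for Psmb4, 0.0017 for Psmb7 and 0.039 for Psmg1, and the wounding change of Psma7 in the total fraction was -0.056. Under that scaling the all-gene median was 0.25 for the wounded cortical ratio, against 0.04 in the main fit. For wounding in the total fraction it was -0.10, against -0.03. With 1 library left out, the wounding change in the total fraction ran from -0.10 to 0.25 for Psma7, below 0 without wounded total replicate 2 (-0.016) or 3. It ran from -0.038 to 0.30 for Psma2, from -0.11 to 0.48 for Psmb10 and from -0.036 to 0.32 for Psmg1, with the lowest values without wounded total replicate 3 and the highest without replicate 1. The cause of these sign changes was not tested.

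The replicate numbers did not pair the libraries: of 18 pairs with the same number, 2 had a correlation of deviations over 0.1, with a mean of 0.012 over 10386 genes. With the replicate number as a block 13, 17, 6, 1 and 0 members passed, of which 13, 17, 5, 1 and 0 were calls of the fit without it, beside 13.7%, 14.6%, 15%, 2.03% and 0.0737% of all genes. Depth limits Psmb8, Psmb9 and Psmd5 most, and in wounded total replicate 1 the genes with few counts.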
